A study of Rattus norvegicus with 3 samples.

Results

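The matrix metalloproteinases Mmp2, Mmp3, Mmp7, Mmp9, Mmp12 and Mmp14 and the tissue inhibitors Timp1, Timp2 and Timp3 were followed on arrays of reperfused rat donor kidney. These 9 genes were chosen with earlier results of these data known. They were read by symbol, as every probe set whose platform annotation gives 1 symbol and that symbol is one of them. All 9 were on the array, with 16 probe sets among 20832 with 1 symbol, which stand for 14218 genes. The kidneys came from male Wistar rats; all 3 groups were of 370 to 508 g, and neither an age nor a genetic change is given in the sources used here. In all 3 groups the donor kidney was left warm for 20 min without blood flow, stored in cold University of Wisconsin preservation fluid for 17 ± 0.7 h, and afterwards fed from the femoral artery of a living rat for 5 h 43 min ± 21 min, where whether these errors are SD or SEM is not stated. Recipients were infused with normal saline at 1 ml/h (control), with heparin at 100 U/ml/h, or with peptide 2 at 0.5 mg/ml, a peptide modelled on the part of the chemokine CCL5 that binds heparin; the design text calls these treatments a bolus instead. Each group is 1 array of RNA pooled from 3 of its 7 kidneys, selected for RNA quality, so differences between kidneys cannot be seen, no test was possible and every difference is that of 1 array from another. The study asked whether heparin or the peptide limits inflammation in this model, in which blood itself perfuses the organ, so that leukocytes of the recipient can contribute RNA.

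Matrix metalloproteinases are zinc-dependent endopeptidases that are secreted or membrane-bound as inactive proenzymes and cut collagens, laminins, elastin, proteoglycans and many non-matrix proteins once their propeptide is removed. Plasmin, furin-like convertases and other metalloproteinases remove that propeptide, and the tissue inhibitors block the active site as tight complexes. In the kidney they are known for turnover of basement membrane and for leukocyte passage after ischaemia. A transcript level says nothing of proenzyme activation, and in whole kidney RNA fewer cells of a type and less RNA per cell cannot be told apart.

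Mmp3, the one of the 9 genes that was at least 2-fold apart in any comparison, lies in a run of metalloproteinase genes on chromosome 8. In the RefSeq gene table of GRCr8 this run holds 10 metalloproteinase genes in the order Mmp13, Mmp12, Mmp1b, Mmp3, Mmp1, Mmp10, Mmp8, Mmp27, Mmp20 and Mmp7, with 0 other protein-coding genes between them. Of the 10, 6 had a probe set and 3 (Mmp12, Mmp3 and Mmp8) were at or above the array median on all 3 arrays. The 250 bases before the transcript start of Mmp3 are shown with those of Mmp12 and Mmp7, the others of the 9 genes that lie in this run. Sequences are from RefSeq, build GRCr8, 5′ to 3′ on the strand of the gene. Capitals mark the AP-1 motif TGAGTCA, a sequence bound by Fos and Jun proteins, and the TATA motif TATAAA.
Mmp3, chr8:12925031-12925280, + strand: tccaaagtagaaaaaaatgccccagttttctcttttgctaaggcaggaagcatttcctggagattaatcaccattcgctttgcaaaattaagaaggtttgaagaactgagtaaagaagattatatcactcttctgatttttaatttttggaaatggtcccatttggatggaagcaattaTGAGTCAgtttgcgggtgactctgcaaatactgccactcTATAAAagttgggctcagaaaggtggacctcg
Mmp12, chr8:12866402-12866651, + strand: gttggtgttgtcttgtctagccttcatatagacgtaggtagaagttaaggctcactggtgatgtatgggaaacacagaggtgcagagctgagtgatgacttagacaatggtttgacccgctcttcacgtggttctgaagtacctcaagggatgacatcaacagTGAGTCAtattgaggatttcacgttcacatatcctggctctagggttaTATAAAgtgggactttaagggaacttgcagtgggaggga
Mmp7, chr8:13132793-13133042, + strand: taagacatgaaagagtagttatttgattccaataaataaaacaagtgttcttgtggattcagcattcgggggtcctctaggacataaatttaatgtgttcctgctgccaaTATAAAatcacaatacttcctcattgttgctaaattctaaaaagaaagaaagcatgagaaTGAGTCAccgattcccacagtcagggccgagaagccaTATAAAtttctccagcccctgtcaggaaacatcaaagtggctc
Both strands were searched, so TGACTCA and TTTATA would have counted as well, and no match of one motif overlapped a match of the other. The AP-1 motif began 71 bases before the start in Mmp3, 87 bases in Mmp12 and 80 bases in Mmp7. A TATA motif began 32 bases before the start in Mmp3, 39 bases in Mmp12 and 43 bases in Mmp7, with a further match 140 bases before the start in Mmp7. Of all 33469 windows of the same length, 4.05% held the AP-1 motif, 12.9% the TATA motif and 0.574% both. An entry was matched by symbol for 6 of the 9 genes (Mmp3, Mmp7, Mmp12, Timp1, Timp2 and Timp3). The entries of Timp1, Timp2 and Timp3 held neither motif in this window. A match describes the letters only.

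**Figure D1:**
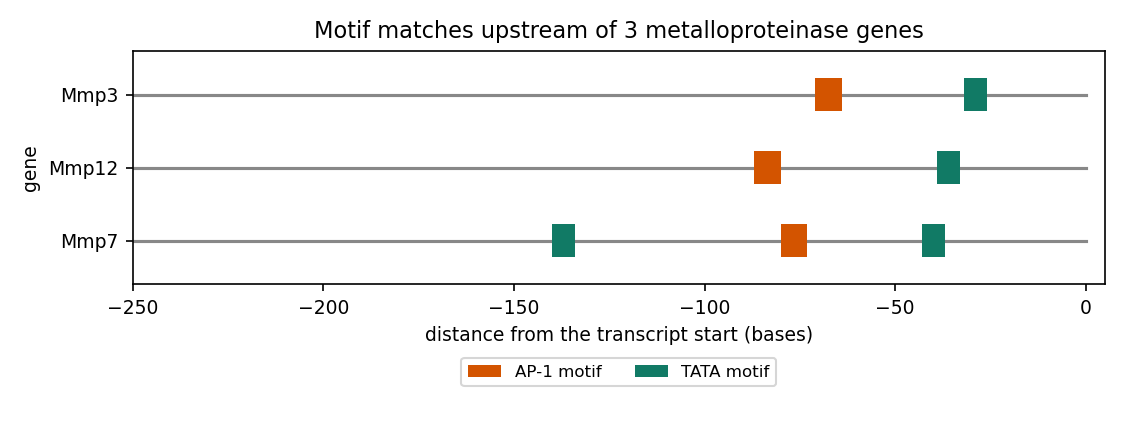
Position of AP-1 (orange) and TATA (green) motif matches in the 250 bases before the transcript start of Mmp3, Mmp12 and Mmp7, drawn to scale; the x axis is the distance from the start in bases. Each of the 3 genes has an AP-1 match, which begins 71 to 87 bases before the start, and a TATA match nearer to it.

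Values are GCRMA log2 expression values, and a difference of 1 is 2-fold. The median of all 31099 probe sets was 4.14 for control, 4.16 for heparin and 4.14 for peptide, and a gene was called measured in a comparison when it reached the median on both arrays. By this rule 11 of the 16 probe sets were at or above the median on all 3 arrays and 5 were below it on all 3. The 7 genes measured were Mmp3, Mmp9, Mmp12, Mmp14, Timp1, Timp2 and Timp3. A gene with several probe sets was read from the one with the highest mean. Exactly equal values on different arrays are common in this table: 30.1% of measured genes had the same value in heparin and control. Among the 16 probe sets 6 were equal on all 3 arrays, which does not show equal abundance. The kidney markers Umod of the thick ascending limb, Lrp2 of the proximal tubule, Aqp2 of the collecting duct and Nphs1 of podocytes read 14.85, 12.02, 11.41 and 8.38 on the control array, all above its median.

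**Figure D2:**
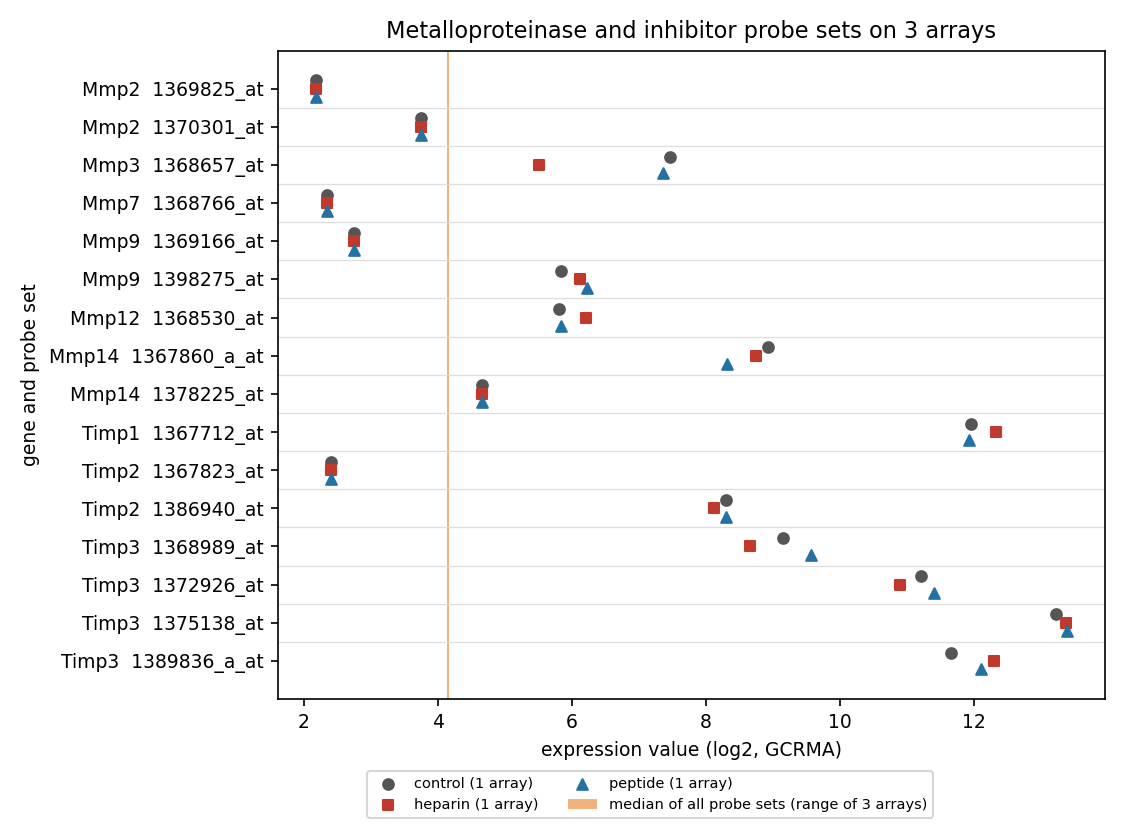
Log2 expression value (x axis) of the 16 probe sets of the 9 genes (y axis, gene and probe set name) on the control (circle), heparin (square) and peptide (triangle) arrays; the orange line spans the 3 array medians, 4.14 to 4.16, and there are no error bars since each group is 1 array. Mmp3 at 5.51 in heparin stands left of its control and peptide values of 7.47 and 7.36, and the 4 probe sets of Timp3 do not keep 1 order of the arrays.

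Mmp3, stromelysin-1, degrades proteoglycans, laminin and fibronectin and activates other proenzymes of the family. Its single probe set read 7.47 in control, 5.51 in heparin and 7.36 in peptide, or 177, 45.6 and 164 on the unlogged scale. The heparin value stands alone, and control and peptide lie close together. Mmp3 was thus 3.88-fold lower in heparin than in control (log2 difference -1.96) and 3.60-fold lower than in peptide (-1.85), and both comparisons use the same heparin array. Of 9236 genes measured in heparin and control, 3 had a more negative difference, and of 9240 in heparin and peptide, 6 had. In either direction, 0.238% and 0.13% of these genes differed by at least as much as Mmp3. Against control the peptide value differed by -0.11, and 32.6% of 9268 measured genes differed by at least as much. The heparin value lay below the 60th percentile of its array, 5.86, so Mmp3 was not measured with a filter at that percentile. With 32 added to the unlogged values, which shrinks differences of dim probe sets, the difference from control was -1.43.

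The control probe sets of the arrays were read as well. The gap between the 3′ and 5′ control probe sets of beta-actin, a sign of RNA integrity and labelling, was 2.95 on the log2 scale for heparin against 2.33 for control and 2.34 for peptide. The gaps of GAPDH were 0.32, 0.36 and 0.37 in the same order, and those of hexokinase 2.18, 2.18 and 2.28. The wider gap in heparin was thus seen for beta-actin and not for GAPDH. The hexokinase gap was exactly equal in heparin and control, and such ties do not show equality. The part of these gaps in the Mmp3 value was not tested. The 3 measured genes whose pair of differences from control was nearest to that of Mmp3, by Euclidean distance over 3 arrays among 9231 genes, were Slc22a13, Golph3 and Calb1, at distances of 0.07, 0.15 and 0.17. Slc22a13, an organic anion transporter, read 6.64 in control, 4.73 in heparin and 6.59 in peptide. Golph3, a Golgi phosphoprotein, read 8.48, 6.45 and 8.26. Calb1, the calbindin of the distal and connecting tubule, read 11.01, 9.18 and 10.79. All 3 were low on the heparin array because they were chosen for likeness to Mmp3, and with 3 arrays many genes can share such an order.

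The gelatinases Mmp2 and Mmp9 cut denatured collagen and the collagen IV of basement membranes. Mmp2, mainly a product of stromal cells, was below the array median on all arrays with both probe sets, which read 2.18 and 3.75 on each of the 3 arrays. Mmp9, a product of neutrophils, macrophages and epithelium, was measured by 1 of its 2 probe sets, at 5.84 in control, 6.12 in heparin and 6.22 in peptide. Both treated pools were higher than control, by 0.28 in heparin and 0.38 in peptide. Differences of at least these sizes were found in 20.0% and 7.02% of measured genes. The other Mmp9 probe set was at 2.74 on all arrays.

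Mmp12, the macrophage elastase, read 5.80 in control, 6.22 in heparin and 5.84 in peptide. The heparin value was 1.33-fold that of control, a difference of 0.41, while the peptide differed from control by 0.03. Differences of 0.41 or more in either direction were found in 12.3% of measured genes. Mmp7, matrilysin, which epithelial cells make, read 2.35 on all 3 arrays and was below the median throughout. Of the measured genes of the chromosome 8 run, Mmp12 was thus higher in heparin than in control, while Mmp3 (-1.96) and Mmp8 (-0.47) were lower. The part of the upstream sequence in these values was not tested.

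Mmp14 is the membrane-type enzyme that, with Timp2, activates pro-Mmp2 at the cell surface. Its brighter probe set read 8.92 in control, 8.75 in heparin and 8.31 in peptide. Here the peptide array was the lowest. The difference from control was -0.60 in peptide (1.52-fold lower) and -0.17 in heparin, and heparin and peptide differed by 0.43. In peptide against control 78 of 9268 measured genes had a more negative difference, and Mmp14 was the one measured member outside the central 95% of genes, which ran from -0.37 to 0.53. In either direction, 2.84% of measured genes differed by at least as much as Mmp14. The other Mmp14 probe set read 4.65 on every array, and the mean of both differed by -0.30.

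Timp1 is the inducible inhibitor of the family, released by injured tubules, stromal cells and leukocytes. It read 11.95 in control, 12.32 in heparin and 11.92 in peptide with its single probe set. The heparin pool was 1.29-fold above control (0.37), and the peptide pool differed from control by -0.03. In heparin against control 14.3% of measured genes differed by at least as much as Timp1. Timp2, the inhibitor that also takes part in activating pro-Mmp2, read 8.30 in control, 8.12 in heparin and 8.30 in peptide. Its control and peptide values were exactly equal, heparin differed by -0.18, and 32.4% of measured genes differed by at least that. The other Timp2 probe set was at 2.40 on all arrays.

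Timp3 binds to the extracellular matrix and inhibits the sheddase Adam17 as well as metalloproteinases. It was the member read by the most probe sets, 4, and all 4 were above the median on all 3 arrays. Probe set 1375138_at read 13.22 in control, 13.37 in heparin and 13.39 in peptide. Probe set 1389836_a_at, of a type that reads several transcripts of a gene, read 11.66, 12.29 and 12.10. Both were higher in each treated pool than in control. Probe set 1372926_at read 11.21 in control, 10.89 in heparin and 11.40 in peptide. Probe set 1368989_at read 9.15, 8.66 and 9.56. In heparin these latter probe sets were lower than in control while the former were higher, so the differences from control were 0.16, 0.64, -0.32 and -0.49 in the order given, with a mean of -0.0036. In peptide all 4 were higher than in control, by 0.17, 0.44, 0.19 and 0.41, with a mean of 0.30. The array therefore gave no single direction for Timp3 in heparin. Of 104 genes with 4 measured probe sets in heparin and control, 39 (37.5%) had differences of both signs, and 7 spanned at least as much as the 1.12 of Timp3, against a median span of 0.43.

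**Figure D3:**
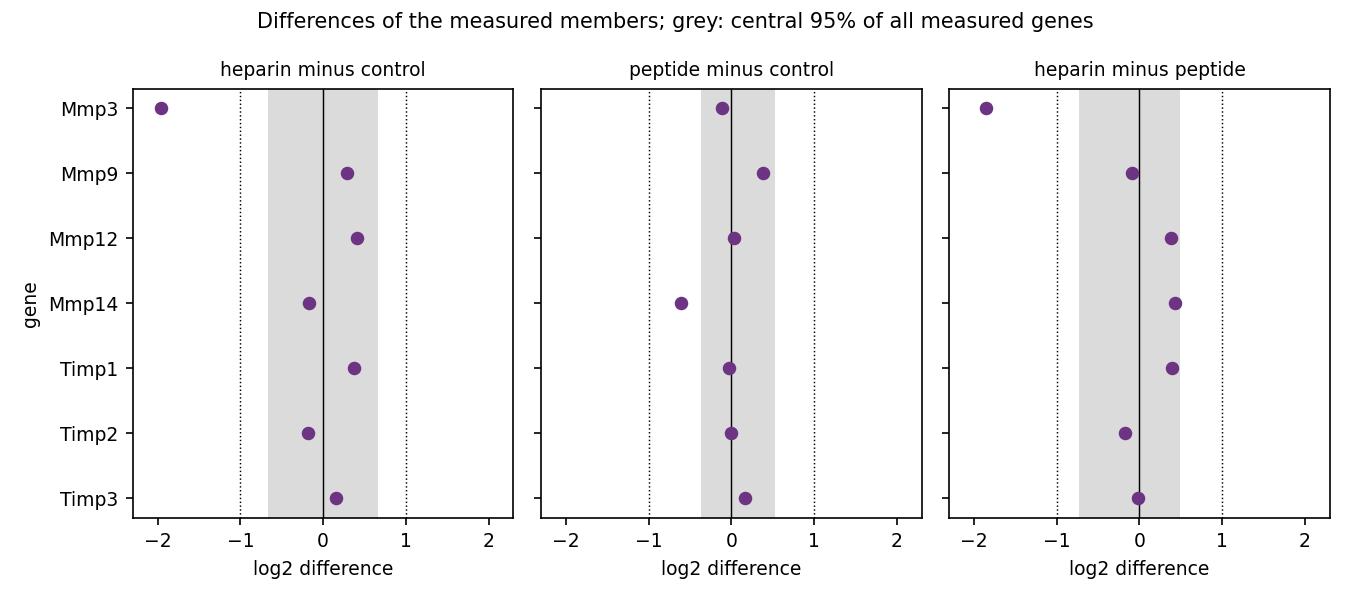
Log2 difference (x axis) of the 7 measured genes (y axis) in heparin minus control, peptide minus control and heparin minus peptide, 1 array each, with the brightest probe set of each gene as a point; grey marks the central 95% of all measured genes and dotted lines mark 2-fold. Mmp3 lies at -1.96 and -1.85 in the comparisons that use the heparin array, Mmp14 lies at -0.60 in peptide minus control, and the other points fall inside the grey range.

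Counted together, 1 of the 7 measured genes was at least 2-fold lower in heparin than in control and 0 were at least 2-fold higher. Over all 9236 measured genes 0.747% were at least 2-fold lower and 1.06% higher. Such shares are a scale only, since the members were chosen with earlier results of these data known. In peptide against control 0 of 7 reached 2-fold, where 0.723% of 9268 genes were at least 2-fold higher and 0.119% lower. In heparin against peptide 1 of 7 was at least 2-fold lower, where 0.844% of 9240 genes were, and 0 were at least 2-fold higher, where 0.281% of genes were. At 1.5-fold 1 of the 7, Mmp3, was lower in heparin than in control and 0 were higher, where 3.37% of all measured genes were lower and 3.04% higher. In peptide against control 1 of the 7, Mmp14, was lower by this measure, where 0.917% of genes were lower and 2.11% higher. In heparin against peptide Mmp3 alone was lower, where 4.57% of genes were lower and 1.62% higher. The members did not share a direction. In heparin, by the brightest probe set, 4 were higher than control (Mmp9, Mmp12, Timp1 and Timp3) and 3 lower (Mmp3, Mmp14 and Timp2). The probe sets of Timp3 had no single direction in heparin, so its place in this count rests on the brightest. The median difference of the members was 0.16. It was -0.0036 with the mean of each gene's probe sets, -0.0057 with the 60th percentile filter and 0.00 with no filter. Of all genes measured in heparin and control 25.8% were higher, 44.2% lower and 30.1% equal. In peptide 3 members were higher (Mmp9, Mmp12 and Timp3), 3 lower (Mmp3, Mmp14 and Timp1) and 1 equal (Timp2), with a median of 0.00, where 32% of all measured genes were higher, 28.5% lower and 39.5% equal. The median over all measured genes was 0.00 in each comparison.

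Of the remaining family members, 12 of 17 listed were on the array and 4 were measured. Mmp8, the neutrophil collagenase, read 6.79 in control and exactly 6.32 in both heparin and peptide, a difference of -0.47 in each. Mmp11, stromelysin-3, read 4.48 in control and 4.45 in both treated pools. The membrane-type enzymes Mmp15 and Mmp24, the latter by the brightest of its 3 probe sets, read 5.70 and 7.69 on every array. Another Mmp24 probe set read 6.62 in control and heparin and 6.75 in peptide, and the remaining one 3.44 on each array. None of the 4 was 2-fold apart. The collagenase Mmp13, the stromelysin Mmp10 and the inhibitor Timp4 were among those below the median on all arrays. Mmp23, named after its values were seen, was just below the median in control with 1 of its 3 probe sets, at 4.10, and read 5.20 in heparin and 4.10 in peptide, while its other probe sets gave equal values on the 3 arrays.

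The list of activators and further inhibitors of these enzymes had 11 measured genes. In heparin 1 was higher than control, 7 lower and 3 equal, with a median of -0.17, where 25.8% of all measured genes were higher and 44.2% lower. Lcn2, a lipocalin of neutrophils and injured tubules, was the 1 gene at least 2-fold lower, at 10.26 in control, 9.23 in heparin and 9.08 in peptide. Its difference of -1.03 in heparin lay close to the 2-fold line. Of all measured genes 0.747% were at least 2-fold lower in heparin than in control. Plau, the urokinase that makes plasmin, read 12.13, 11.72 and 12.81, and its receptor Plaur read 9.94, 9.44 and 10.35. Both were lowest in heparin and highest in peptide, and Plau was at least 2-fold apart between these pools (heparin minus peptide -1.09). In that comparison 0.844% of all measured genes were at least 2-fold lower in heparin. In peptide 4 of the 11 were higher than control, 5 lower and 2 equal, with a median of 0.00, where 32% of all measured genes were higher and 28.5% lower. Lcn2 was again the 1 gene at least 2-fold lower, where 0.119% of all measured genes were.

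Among matrix substrates of the enzymes 19 of 20 genes were measured. In heparin 11 were higher than control, 5 lower and 3 equal, with a median of 0.12, and 0 reached 2-fold; of all measured genes 25.8% were higher and 44.2% lower. Dcn, the collagen-binding proteoglycan decorin, read 9.64 in control, 10.59 in heparin and 10.11 in peptide. Vcan, the proteoglycan versican, read 8.56, 9.24 and 8.77, and Col5a2, a chain of collagen V, 7.23, 7.80 and 7.48. For all 3 the heparin array was the highest. In peptide 5 of the 19 were higher than control, 12 lower and 2 equal, with a median of -0.03, where 32% of all measured genes were higher and 28.5% lower. Set directly against peptide, heparin was higher for 16 of the 19 and lower for 1, with a median of 0.20, where 26.8% of all measured genes were higher in heparin and 43.7% lower.

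Of the upstream transcription factors and cytokines, 17 of 19 were measured. In heparin 5 were higher than control, 11 lower and 1 equal, with a median of -0.09, where 25.8% of all measured genes were higher and 44.2% lower. Fosb, a partner in AP-1, read 10.76 in control, 9.40 in heparin and 10.52 in peptide and was the 1 gene at least 2-fold apart, 2.56-fold lower in heparin. Of all measured genes 0.747% were at least 2-fold lower in heparin than in control and 1.06% higher. Fosb also differed by -1.12 between heparin and peptide, where 0.844% of all measured genes were at least 2-fold lower in heparin. The cytokines Osm (0.66) and Il6 (0.62), both of which signal through gp130, were higher in heparin than in control. Osm was dim, at 5.03 in control, 5.68 in heparin and 5.21 in peptide, below the 60th percentile of each array. Il6 read 11.24, 11.87 and 11.59. In peptide 9 were higher and 8 lower, against 32% and 28.5% of all measured genes, with a median of 0.03 and 0 genes at 2-fold.

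**Figure D4:**
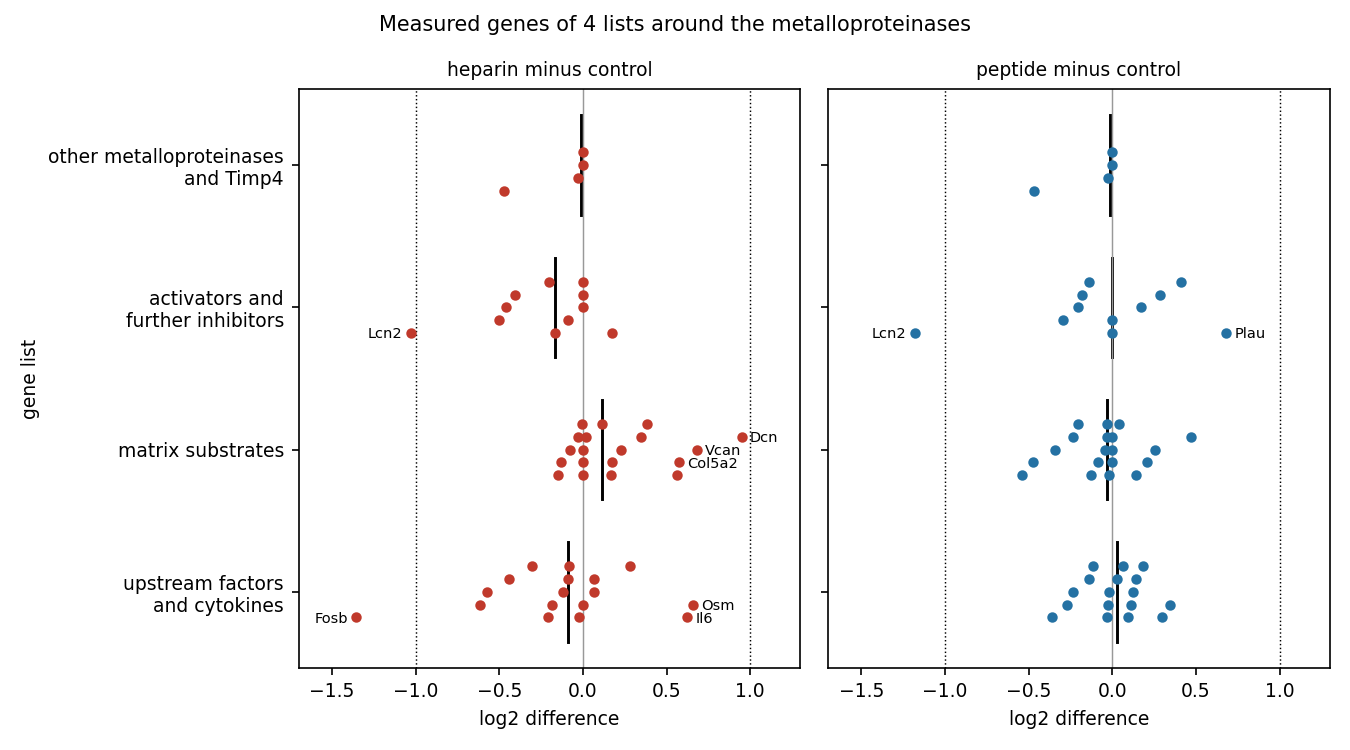
Log2 difference from control (x axis) of the measured genes of 4 gene lists (y axis; small vertical offsets only separate points) in heparin (left) and peptide (right), 1 array each; black bars are list medians, dotted lines mark 2-fold, and genes named by rule with a difference of at least 0.55 are labelled. Lcn2 and Fosb pass the 2-fold line in heparin, Lcn2 narrowly at -1.03, and Lcn2 passes it in peptide.

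Cell types that make these enzymes were followed through marker lists, read as the summed unlogged level of all markers on the array and as the median log2 difference of the measured ones. A sum follows its most abundant marker, so it is also given without that gene. Macrophage markers (10 of 10 on the array, with Cd163 below the median throughout) summed to 14308 in control, 19119 in heparin and 14104 in peptide. Most of the higher sum in heparin, where Mmp12 was also highest, came from the lysozyme gene Lyz2, and without it the sums were 3035, 3269 and 2528. Of 9 measured macrophage markers 5 were higher, 2 lower and 2 equal in heparin against control, with a median of 0.02, and the median in peptide was 0.00. Of all genes measured in heparin and control 25.8% were higher, 44.2% lower and 30.1% equal. The largest differences were those of the Fc receptor Fcgr3a (1.06 in heparin, 1.34 in peptide), Gpnmb (-0.26 and -1.21) and Lyz2 (0.49 and 0.04).

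Neutrophil markers (6 of 10 on the array, Camp below the median) summed to 12818, 12025 and 15503 in control, heparin and peptide, highest in peptide, where Mmp9 was also highest and Mmp8 was below control. S100a9 and S100a8, which form calprotectin, made up most of these sums. Without S100a9, the most abundant, they were 5049.7, 4686.2 and 6372.5. S100a8 differed from control by -0.13 in heparin and 0.38 in peptide, S100a9 by -0.08 and 0.23, and the integrin chain Itgb2 by 0.14 and 0.00. Csf3r differed by 0.00 and -0.08, Cxcr2 was equal on all arrays, and the median was 0.00 in both comparisons. Of 7 T cell markers 6 were below the median on all arrays, and Cd3e read 4.76 on each. Their sum was 70.8 on each array and 43.7 without Cd3e.

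Fibroblast and mesangial markers (8 of 8, Lum below the median) summed to 7856, 9390 and 6927, and without Vim, the most abundant, to 1468, 1860 and 1547. Their median was 0.16 in heparin and 0.00 in peptide, with Pdgfra at 0.47 and -0.10, Tagln at 0.47 and 0.40 and Vim at 0.24 and -0.25. Endothelial markers (6 of 7) summed to 2886, 3610 and 2477, and without Kdr to 1653, 2068 and 1638. Their median was 0.16 in heparin and -0.0024 in peptide, with Kdr at 0.32 and -0.56, Emcn at 0.51 and -0.0048 and Vwf at -0.16 and 0.36. In both lists the sum was highest in heparin with and without the most abundant gene.

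Proximal tubule markers (6 of 6) summed to 32722, 33755 and 36284, and without Slc34a1 to 15284, 16316 and 17191. Their median was 0.04 in heparin and 0.11 in peptide. Slc5a2 was at -0.52 and -0.05, Slc22a6 at 0.33 and 0.30 and Aqp1 at 0.08 and 0.25. Markers of other nephron segments (7 of 8) summed to 42341, 44803 and 42605, and without Umod to 12830, 11675 and 12361, so that heparin was the highest with Umod and the lowest without it. Calb1, at -1.83 in heparin and -0.22 in peptide, was the 1 gene of this list at least 2-fold apart from control, and it weighs on the sums without Umod. In heparin against control 0.747% of all measured genes were at least 2-fold lower. Of the 7 markers 4 were higher and 3 lower in heparin than in control, where 25.8% of all measured genes were higher and 44.2% lower. Podxl was at 0.74 and -0.08 and Slc12a3 at -0.34 and -0.17, and the list medians were 0.04 and -0.04. The part of any of these cell types in the values of the 9 genes was not tested.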

How the data were processed

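Expression was measured on 3 Affymetrix expression arrays, each with pooled total RNA. The deposited table gives each probe set a log2 expression value. It was made with GCRMA, which corrects background by probe sequence, per the submitters' processing notes, which give no version. The sources used here do not give its settings or any normalization between arrays. No further scaling was applied. Such correction pulls dim probe sets to shared low values: within 0.01 of the lowest value, 2.18, were 30.9% of probe sets in control, 29.5% in heparin and 30.9% in peptide. Precision is limited by the number of arrays, 1 per group.

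A gene was read from its probe set with the highest mean and called measured where both arrays reached the median (the 50th percentile). Differences were taken between arrays and counted at 2-fold, with no test, p-value or error. The comparisons with control share the control array. The rule for named genes took all members, the measured further metalloproteinases, up to 3 genes per other list with the largest difference from control, and the 3 genes nearest to each member that was 2-fold apart. Members, 4 pathway lists and 7 cell type lists were chosen with earlier results of these data known. Counting was run on simulated arrays without noise, where the differences put in fixed the counts, so this checks the code only. Promoter sequences came from RefSeq tables of GRCr8. The 7 alternatives were the mean of probe sets, quantile normalization, filters at the 40th and 60th percentile and none, 32 added to the unlogged values, and a 1.5-fold threshold. Python 3.11.15, numpy 2.4.6, pandas 2.3.3 and matplotlib 3.10.9 were used.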

Additional observations from a re-analysis of the deposited data

How the results depend on the processing

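No paired analysis was possible because each group is 1 array, and for the same reason no array could be left out. Mmp3 stayed lower in heparin wherever it was measured, from -1.96 to -1.43 against control and from -1.85 to -1.34 against peptide. A filter or another threshold leaves a difference itself as it is. Under the 3 alternatives that can change one (probe set means, quantile normalization and 32 added), 61 of 63 differences of members kept their direction and their side of 2-fold. Most of these directions were fixed in advance, so the count is no measure of robustness. Adding 32 shrinks a difference but cannot turn its direction, and probe set means leave genes with 1 probe set as they are. The other probe sets of Mmp9, Mmp14 and Timp2 were equal on all arrays, so a mean could not turn these genes either. The exceptions were Timp3 in heparin against control (-0.0036 with the mean of its probe sets) and Timp2 in peptide against control (-0.01 after quantile normalization). With a filter at the 60th percentile, which leaves Mmp3 out, 0 members were 2-fold apart in heparin against control and 0 in heparin against peptide. At 1.5-fold 1 member, Mmp14, was apart in peptide against control. Of 51 measured genes of the 4 pathway lists, 2, 1 and 2 were 2-fold apart in heparin against control, peptide against control and heparin against peptide. Of all measured genes 1.06% were higher and 0.747% lower, 0.723% and 0.119%, and 0.281% and 0.844% in the same order. At 1.5-fold the list genes numbered 7, 2 and 9 of the 51. All measured genes gave 3.04% higher and 3.37% lower, 2.11% and 0.917%, and 1.62% and 4.57% at that threshold. In heparin against control 1 of the 51 was 2-fold apart after quantile normalization, and 1 with 32 added. Of the 2 genes apart without these changes, Lcn2 (-1.03) lay closer to the 2-fold line than Fosb (-1.36).

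Over all 9236 measured genes at 1.5-fold, 281 were higher and 311 lower in heparin than in control (98 and 69 at 2-fold). In peptide against control these counts were 196 and 85 of 9268 (67 and 11). In heparin against peptide they were 150 and 422 of 9240 (26 and 78). With 32 added, 40 were lower in heparin than in control, 6 lower in peptide than in control, and 15 higher and 40 lower in heparin than in peptide. With the 60th percentile filter 7 were lower in peptide than in control and 16 higher in heparin than in peptide, a count that was 49 without any filter and 13 when probe sets were averaged. After quantile normalization the split of heparin against peptide was 36 higher and 57 lower. The causes of these shifts in counts over all genes were not tested.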
